A study of Populus tremula x Populus alba with 6 samples.

Results

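Genes on unplaced scaffolds are gene models that lie on stretches of a genome assembly which could not be ordered onto any chromosome. In the poplar gene numbering of the deposited count tables, a gene on a chromosome carries that chromosome's number, and a gene on a scaffold carries the letter T (Potri.T followed by a serial number). Of the 32049 genes listed, 1152 carry the letter T, and 865 of these had at least 10 counts summed over the 6 libraries. These 865 are the scaffold genes described here, and the silent share is given over all 1152. The other 30897 genes lie on 19 numbered chromosomes, and 26823 of them reached the same minimum.

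Transcripts were measured by RNA sequencing in the shoot apex, the growing tip with the meristem and the youngest leaves, of 6 hybrid poplars (Populus tremula x Populus alba, clone 717-1B4). The 3 CTRL plants were wild type, and the 3 RNAi plants carried a knock-down construct against DDM1, all biological replicates per the design text. All 6 plants, CTRL included, had gone through 3 weeks of water deficit and 1 week of re-watering, on compost at 21 °C with 16 h of light. The sources used here do not state the promoter of the construct or how many transformed lines the 3 RNAi plants represent, and an effect of a line and one of the knock-down cannot be told apart. The level of DDM1 and markers of the apex were not analysed here, since no gene names accompany the identifiers. In such bulk samples, fewer cells of a type and less RNA per cell cannot be told apart.

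Sequence stays unplaced when an assembler cannot tell where it belongs, which happens most in repeats, in recent duplicates, in clusters of related genes and where both parental copies of a region differ too much to be merged. DDM1 encodes a chromatin remodeller that plants need to keep DNA methylated, above all in transposons and other repeats. Plants without it are known, from Arabidopsis, to express transposons that are silent in the wild type. The Potri identifiers are those of the gene models of Populus trichocarpa, another species than the parents of the hybrid. No table pairs the scaffold identifiers with a function, a position or a sequence, so they are described by their counts alone.

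Scaffold genes were listed almost wholly as 1 block. The last 1151 rows of each file were scaffold genes, and 1 more, Potri.T144100, stood among the genes of chromosome 4 and had 0 counts in every library. The libraries held from 12399644 to 17165295 sense counts on genes. At that depth an observed 0 is compatible with up to 3 counts, or with 0.173 to 0.260 CPM depending on the library (CPM, counts scaled to the TMM-adjusted library size), for counting error only. Reads that mapped to several places were kept apart from genes in the files and amounted to 3.43% to 3.88% of a library's reads. Reads of a gene with a near-identical copy would fall there, and how many scaffold genes this touches was not tested.

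Silence was more frequent among scaffold genes than on any numbered chromosome. Of the 1152 listed scaffold genes, 141 had 0 sense counts in all 6 libraries, or 12.2% (95% exact binomial interval from 10.4% to 14.3%, counting error only). Over the genes of the chromosomes together this share was 6.84%, and on single chromosomes it ran from 5.03% on chromosome 2 to 10.2% on chromosome 19. A further 146 scaffold genes had between 1 and 9 counts, so that 24.9% of the listed scaffold genes stayed under 10 counts, against 13.2% of the chromosome genes. Close to the minimum the numbers were small: 11 scaffold genes had 9 counts and were left out, and 6 had 10 counts and were kept. Genes are not replicates, so these shares are given without a test.

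Some scaffold genes that were silent on their own strand had reads on the opposite strand. Of the 141 silent genes, 112 had no count on either strand, 12 had at least 10 opposite-strand counts and 4 had at least 100. Silent genes with at least 10 opposite-strand counts were 8.51% of the silent scaffold genes, whereas on the chromosomes they were 423 of 2112. Counting without regard to strand, 9.81% of the listed scaffold genes and 4.64% of the listed chromosome genes were silent.

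Expressed scaffold genes had low levels. The median over the 865 was 2.75 CPM, against 13.7 CPM over the chromosome genes with at least 10 counts, a ratio of 4.98. CPM is not divided by transcript length, which is not used here, so that part of this ratio may be length, and this was not tested. Chromosome medians ranged from 9.40 CPM on chromosome 17 to 15.6 CPM on chromosome 9, all above the scaffold median. The middle of the scaffold distribution lay between quartiles of 0.661 and 8.80 CPM, and its range ran from 0.109 to 2760 CPM. At least 1 CPM was reached by 589 scaffold genes (68.1%, chromosomes 87.7%), at least 10 CPM by 197 (22.8%, chromosomes 57.7%) and at least 100 CPM by 16 (1.85%, chromosomes 7.10%).

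**Figure D1:**
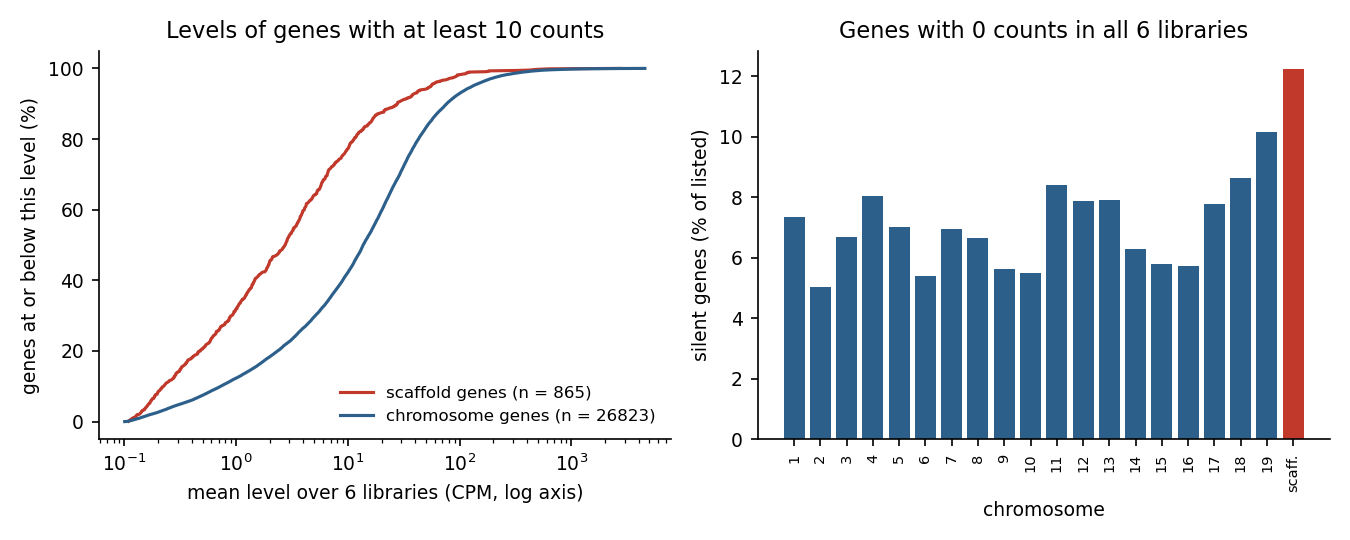
Left, the cumulative share of genes against the mean level over 6 libraries (CPM, log axis) for the 865 scaffold genes and the 26823 chromosome genes with at least 10 counts. Right, the share of listed genes with 0 counts in all 6 libraries, a bar for each of the 19 chromosomes and 1 for the scaffolds. The scaffold curve lies to the left, with a median of 2.75 CPM, and the scaffold bar is the highest at 12.2%, ahead of chromosome 19 at 10.2%.

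A large part of the counts on scaffolds lay on a small part of the genes. Of the 1200924 counts on the 865 genes, Potri.T011200 alone held 20.3%, the 5 most abundant genes 35.4% and the 20 most abundant 50% or more. On no chromosome did the most abundant gene hold over 11.3% of the counts (chromosome 19), and the lowest such share was 1.40% (chromosome 3).

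Potri.T011200 had 3189, 2633 and 3211 CPM in CTRL 1, 2 and 3 and 2955, 2088 and 2485 CPM in RNAi 1, 2 and 3. The groups overlapped, with the lowest values in RNAi 2 and 3. Potri.T162900 had 544, 684 and 615 CPM in CTRL and 708, 488 and 794 CPM in RNAi, so that RNAi held both the highest and the lowest library. Potri.T177600 had 518, 449 and 349 CPM in CTRL and 587, 307 and 525 CPM in RNAi, again with RNAi 2 the lowest.

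Potri.T035300 and Potri.T035400 stand in neighbouring rows and both had their lowest level in CTRL 2 and their highest in CTRL 1. Potri.T035300 had 761, 266 and 487 CPM in CTRL and 617, 503 and 483 CPM in RNAi. Potri.T035400 had 549, 358 and 427 CPM in CTRL and 438, 447 and 380 CPM in RNAi. The row before them, Potri.T035100, which was named once its values had been seen, had 514, 170 and 311 CPM in CTRL and 346, 322 and 299 CPM in RNAi, also lowest in CTRL 2. In all 3 genes the spread among the CTRL plants was wider than that among the RNAi plants, and the groups overlapped.

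**Figure D2:**
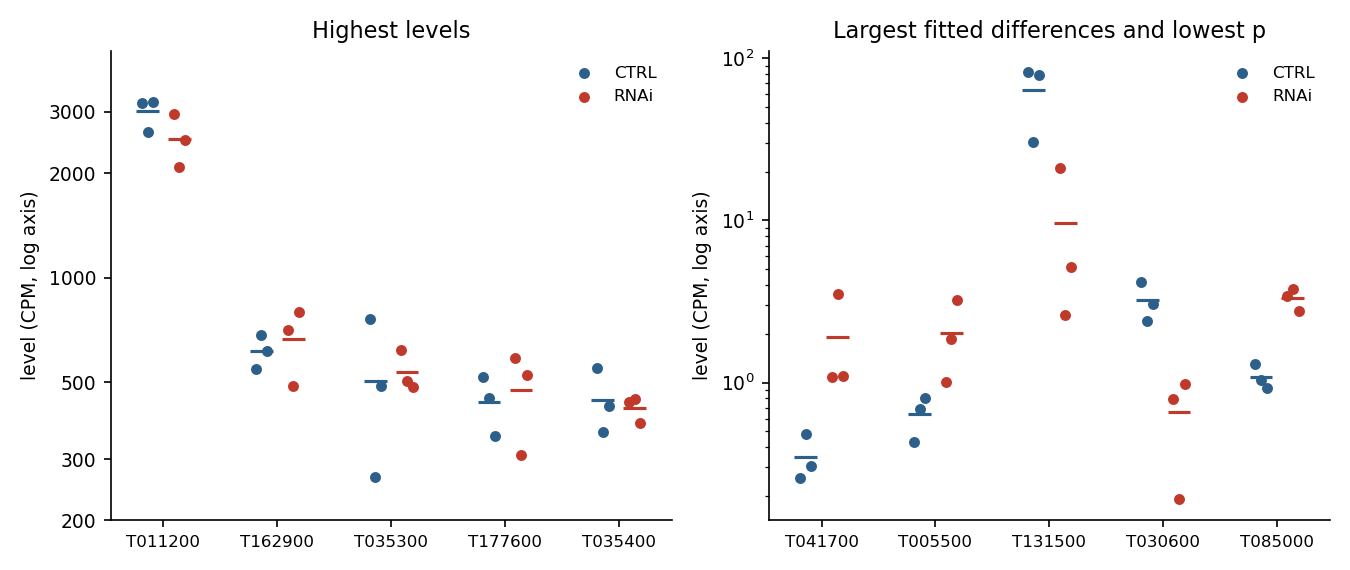
Levels (CPM, log axis) in each library, a point per library and a line at the group mean, for CTRL (blue, n = 3) and RNAi (red, n = 3). Left, the 5 scaffold genes with the highest mean level, whose groups overlap. Right, the genes with the largest fitted differences and the lowest p, whose groups do not overlap.

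The share of a library's gene counts that fell on scaffolds was 1.39%, 1.34% and 1.43% in CTRL 1, 2 and 3 and 1.39%, 1.22% and 1.35% in RNAi 1, 2 and 3. The group means were 1.38 ± 0.04% in CTRL and 1.32 ± 0.09% in RNAi (SD, n = 3 each), and the groups overlapped. RNAi 2 was the lowest, and it was also the library where Potri.T011200 held the smallest part of the scaffold counts, 16.8% against 18.5% to 23.4% elsewhere. Without that gene the means were 1.08 ± 0.02% in CTRL and 1.07 ± 0.05% in RNAi.

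In each single library nearly all of the 865 scaffold genes were detected. These genes were chosen for at least 10 counts over the same 6 libraries, so that high detection follows in part from the choice. Between 839 and 862 of the 865 had at least 1 count in a library, and scaled to the depth of the shallowest library the means were 849 ± 10.3 in CTRL and 846 ± 4.13 in RNAi (SD, n = 3 each). No scaffold gene with at least 10 counts was at 0 in all 3 libraries of 1 group. Among all 1152 listed, 3 genes (0.260%) were at 0 in the 3 CTRL libraries and above 0 in the 3 RNAi libraries, and 3 showed the reverse. On the chromosomes these were 28 (0.0906%) and 21 (0.0680%) of 30897 genes. All 6 of the scaffold genes had fewer than 10 counts, and these shares were not matched on level. A 0 in at least 1 library was found for 62 of the 865 (7.17%), against 2.84% of the chromosome genes. Chromosome genes weighted to the same levels had such a 0 in 8.15% of cases, so that at like level the scaffold share was the lower one.

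On the opposite strand, scaffold genes as a whole looked richer than the chromosomes only through 1 gene. Opposite-strand counts made up 4.26% of the counts on both strands over scaffold genes and 1.65% over chromosome genes. Potri.T177700 held 76.1% of these opposite-strand counts, and without it the scaffold share was 1.05%. Of the scaffold genes with at least 100 counts on both strands together, 10 of 580 (1.72%) had more opposite than sense counts, against 2.17% of the chromosome genes. The median share of opposite-strand counts was 0.104% and 0.171%.

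Potri.T177700 had 16, 10 and 20 sense counts in CTRL and 13, 8 and 14 in RNAi. Its opposite-strand counts were 6200, 7217 and 5709 in CTRL and 7608, 4898 and 9052 in RNAi, and the groups overlapped. The row before it, Potri.T177600, is among the 5 most abundant scaffold genes and followed the same order over the libraries, with 5991, 6529 and 5680 sense counts in CTRL and 8116, 4796 and 9103 in RNAi. In the column that ignores strand, where reads shared by overlapping genes are assigned to neither, Potri.T177600 kept 25454 counts in all, against 40215 in the sense column. Potri.T177700 kept 25859 counts in that column, against 81 sense and 40684 opposite-strand counts, so that most of its reads were not shared with another gene.

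Potri.T148600 and Potri.T081800 came next in opposite-strand share among scaffold genes with at least 10 sense counts and 100 on both strands together. Genes with fewer sense counts were not ranked, and some had a larger share, such as Potri.T174400 with 0 sense and 432 opposite-strand counts. Potri.T148600 had 11 sense counts in all. On the opposite strand it had 79, 146 and 160 counts in CTRL and 142, 173 and 273 in RNAi. Scaled to CPM these were 6.84, 10.04 and 9.84 in CTRL and 10.3, 11.1 and 15.7 in RNAi, so that the groups overlapped by count and narrowly did not by CPM. Potri.T081800 had 17 sense counts in all. Its opposite-strand counts were 84, 79 and 84 for CTRL and 93, 137 and 95 for RNAi. Scaled to CPM these were 7.27, 5.43 and 5.17 in CTRL and 6.72, 8.78 and 5.48 in RNAi, and the groups overlapped. Tested on the opposite strand, none of the 28 scaffold genes with enough such counts was called (lowest adjusted p = 0.71, edgeR's quasi-likelihood test), and 2 (7.14%) had an unadjusted p under 0.05. Over all 1725 genes tested on that strand, 0.058% were called and 6.49% had an unadjusted p under 0.05, so that the scaffold share was near the background.

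**Figure D3:**
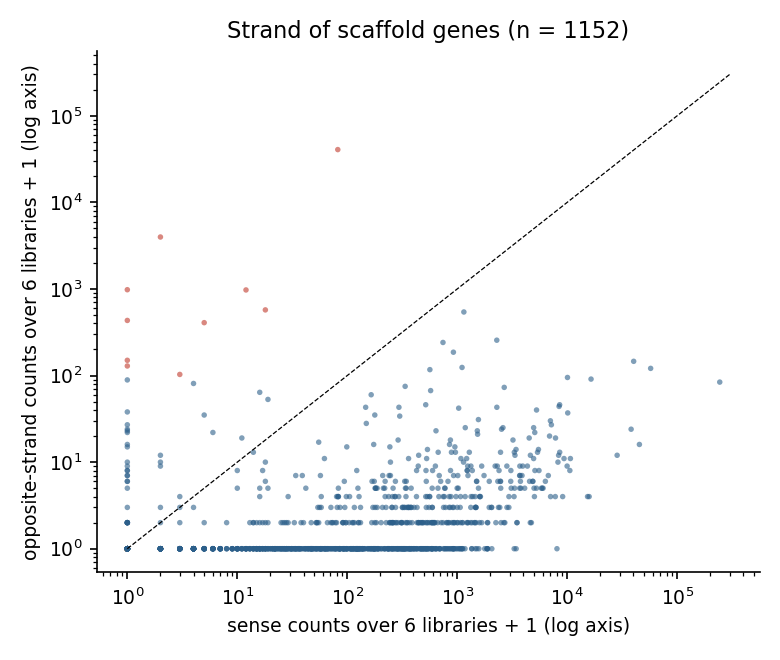
Opposite-strand counts against sense counts, each summed over 6 libraries plus 1 (log axes), a point for each of the 1152 listed scaffold genes, with equality as a dashed line. Red points are the 10 genes with at least 100 counts on both strands together and more opposite than sense counts, the highest of them Potri.T177700.

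No scaffold gene was called changed between RNAi and CTRL. Of the 865, 647 passed the filter on low counts and were tested, 74.8% against 90.8% of the chromosome genes. The 218 left out had a median of 25 counts and at most 79. The lowest adjusted p was 0.61 (edgeR's quasi-likelihood test, Benjamini-Hochberg over all 24991 genes tested), and over all genes that test called 1, or 0.004%. At an unadjusted p under 0.05 there were 50 scaffold genes (7.73%, over all genes 5.64%), of which 36 were higher in RNAi and 14 lower. limma-voom also called 0 scaffold genes, and over all genes 0.008%. DESeq2 and edgeR's likelihood ratio test called 2 scaffold genes each, 1 higher and 1 lower, the same in both tests. Over all genes DESeq2 called 37 of 29796 (0.124%, scaffold genes 0.198%) and the likelihood ratio test 61 of 24991 (0.244%, scaffold genes 0.309%), so that 2 calls were near the background.

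The scaffold genes past an unadjusted p of 0.05 leaned towards higher levels in RNAi. The 36 higher genes were 5.56% of the scaffold genes tested, where the background over all genes was 3.08%, and the 14 lower were 2.16%, where it was 2.56%. Chromosome genes weighted to the levels of the scaffold genes gave 2.93% higher and 3.08% lower. The share at such a p in either direction was 7.73%, where single chromosomes ran from 4.15% (chromosome 14) to 7.65% (chromosome 13). Of the scaffold genes at such a p 72% were higher, where single chromosomes ran from 40.4% (chromosome 12) to 64.8% (chromosome 5). Single chromosomes were not matched on level. Of the tested members, 4 passed the filter only through the RNAi libraries and 2 only through the CTRL libraries, and 4 and 1 of these are among the 36 and the 14. With all 865 genes fitted, 41 were higher and 19 lower, together 6.94%, where all 27688 genes so fitted gave 5.74% (858 higher and 730 lower). With library size as the only scaling the split was 28 and 18, beside 532 and 768 over all genes. Without CTRL 3 it was 21 and 10, beside 350 and 383 over all genes. Without RNAi 2 it was 31 and 21, beside 584 and 575, and there the lower scaffold genes (3.13% of those tested) also exceeded their level-matched share (2.61%).

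Ranges of CPM that did not overlap between the groups were found for 88 scaffold genes, 13.6% of those tested, against 11.8% over all genes. In 55 of these (8.50%, over all genes 5.75%) RNAi was the higher group, and in 33 (5.10%, over all genes 6.08%) the lower. The level-matched chromosome genes gave 5.16% and 6.61%. In either direction together, single chromosomes ran from 9.78% (chromosome 11) to 14.1% (chromosome 12), the latter above the scaffold share of 13.6%. A fitted difference of 2-fold or more was seen for 15 scaffold genes upwards (2.32%, over all genes 0.976%) and 7 downwards (1.08%, over all genes 0.728%), where level matching gave 1.66% and 1.47%. Members that passed the filter only through 1 group were kept in these counts. Potri.T041700, Potri.T164200 and Potri.T091500, which passed only through RNAi, are among the 15 (log2 fold changes of 2.40, 1.40 and 1.11). Shares without the members that passed through 1 group only were not computed.

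The lean was small in size. The median log2 fold change was 0.03 over the 647 scaffold genes and -0.02 over the level-matched chromosome genes, and 55.3% of scaffold genes had a fitted value above 0, against 47.5% after matching and 49.8% over all genes. As the deviation of each library from the mean of all 6 (log2 CPM, prior count of 2), the scaffold median was -0.013, 0.0049 and -0.030 in CTRL 1, 2 and 3 and 0.026, 0.043 and 0.020 in RNAi 1, 2 and 3, so that the groups did not overlap. After subtraction of the level-matched chromosome genes these were 0.020, -0.055 and -0.051 in CTRL and 0.051, 0.046 and 0.00054 in RNAi, and the groups overlapped.

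**Figure D4:**
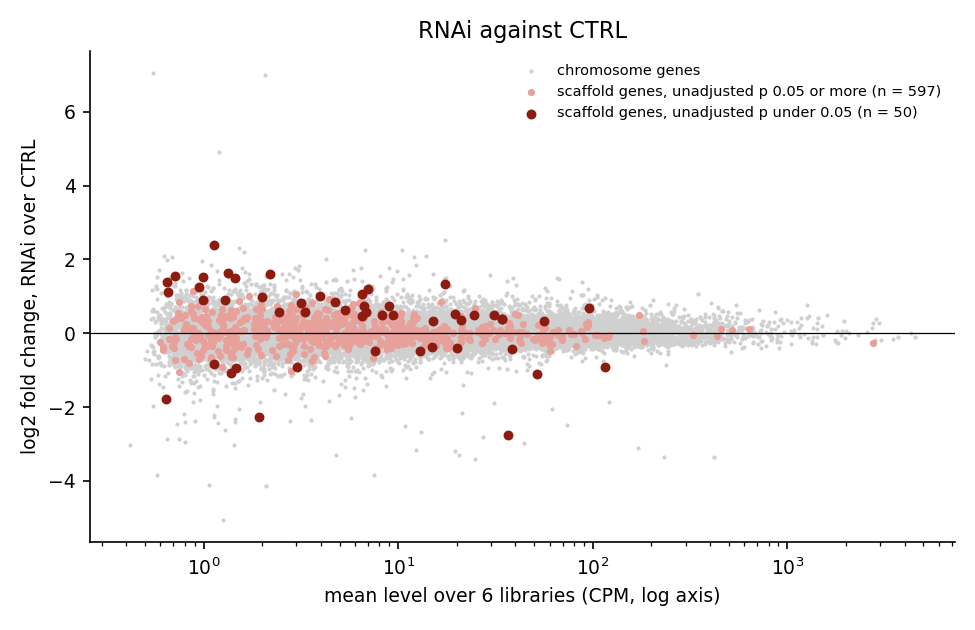
Log2 fold change of RNAi over CTRL against the mean level over 6 libraries (CPM, log axis), a point per tested gene, with chromosome genes in grey and the 647 scaffold genes in red. The 50 dark points are scaffold genes at an unadjusted p under 0.05, 36 above the line of no difference and 14 below it.

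By edgeR's estimate, replicates of scaffold genes scattered more than those of chromosome genes, and at like level the medians were close. The median biological coefficient of variation, edgeR's estimate of the spread between replicate plants, was 0.217 over the scaffold genes tested. It was 0.179 over all chromosome genes tested, with single chromosomes between 0.176 and 0.191, and 0.216 over chromosome genes of like level. The estimate for each gene is drawn towards that of genes of like level, so that likeness after matching is in part built in. In 4 of the 10 level bins the scaffold median was the higher, the bin of the highest levels included (0.171 against 0.159). The median absolute log2 fold change was 0.23 on scaffolds, 0.21 after matching and 0.16 over all chromosome genes.

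**Figure D5:**
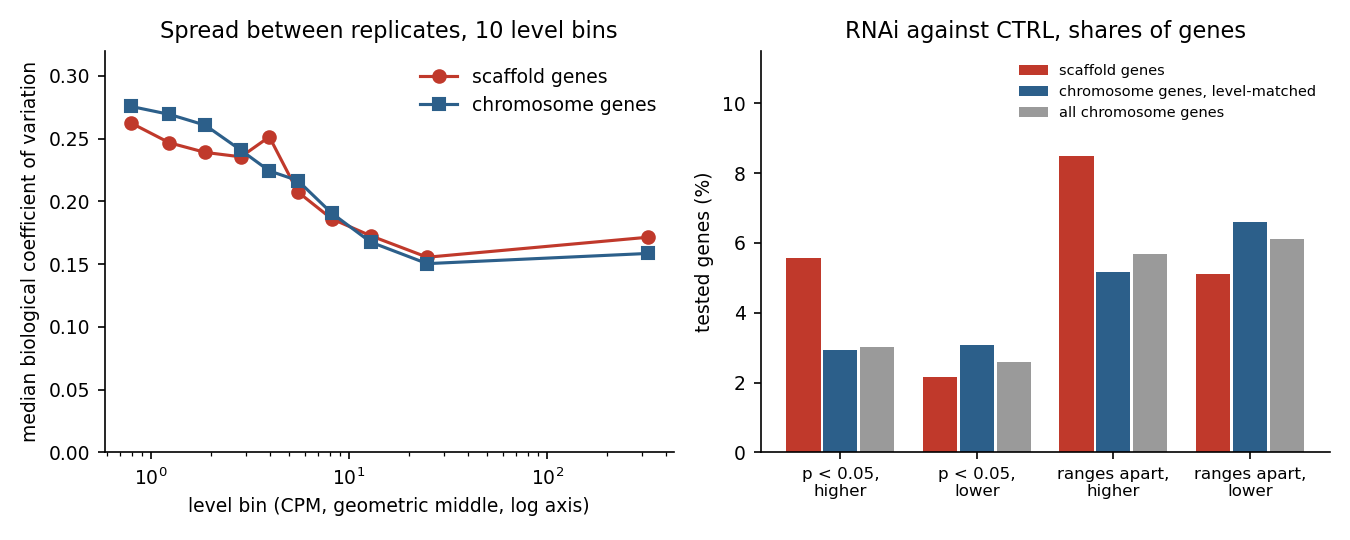
Left, the median biological coefficient of variation in 10 bins of level (CPM, log axis) for scaffold genes and chromosome genes, which run close together. Right, the share of tested genes at an unadjusted p under 0.05 or with CPM ranges apart, in each direction of RNAi against CTRL, for scaffold genes, level-matched chromosome genes and all chromosome genes. The scaffold bars are the highest upwards (5.56% and 8.50%) and the lowest downwards (2.16% and 5.10%).

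Among scaffold genes the lowest p belonged to Potri.T085000, with 15 counts in each CTRL library and 47, 59 and 48 in RNAi 1, 2 and 3. Levels averaged 1.08 ± 0.19 CPM in CTRL and 3.32 ± 0.51 CPM in RNAi (SD, n = 3 each), and the groups were apart. By edgeR's quasi-likelihood test the log2 fold change was 1.62 ± 0.28 (SE) and the adjusted p was 0.61. It passed in DESeq2 (adjusted p = 0.025) and in the likelihood ratio test (adjusted p = 0.0012).

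The largest fitted differences upwards were those of Potri.T041700 and Potri.T005500. For Potri.T041700 the counts were 3, 7 and 5 in the CTRL and 15, 55 and 19 in the RNAi libraries. Its log2 fold change was 2.40 ± 0.62 (SE), and its adjusted p by edgeR's quasi-likelihood test was 0.80. RNAi 2 held more of its counts than RNAi 1 and 3 together, and without that library the log2 fold change was 1.60. It is 1 of the 4 genes that entered the test only through the RNAi libraries, the group where it is high. All its CTRL levels were below the filter's minimum of 0.670 CPM, so that it could enter only if RNAi was higher. For Potri.T005500 they were 5, 10 and 13 in the CTRL and 14, 29 and 56 in the RNAi libraries, with RNAi 3 the highest. Here edgeR gave a log2 fold change of 1.64 ± 0.49 (SE) and an adjusted p of 0.80, and 1.14 without RNAi 3. In both genes the groups did not overlap by CPM, and neither passed in any of the tests run.

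Downwards, the largest fitted difference was that of Potri.T131500. Its counts were 949, 445 and 1280 in CTRL and 290, 41 and 89 in RNAi, or 82.1, 30.6 and 78.7 CPM against 21.0, 2.63 and 5.13 CPM. The groups did not overlap, with CTRL 2 and RNAi 1 nearest to each other, and RNAi 1 stood well above the other RNAi libraries. Its log2 fold change was -2.75 ± 0.71 (SE), with 0.80 as adjusted p by edgeR's quasi-likelihood test, and -4.04 without RNAi 1. The row before it, Potri.T131400, was named after its values were seen and was too low to be tested. It had 14, 6 and 36 counts in CTRL and 1, 0 and 1 in RNAi. By CPM, RNAi 2 was the lowest library in both genes, while the highest was CTRL 1 for Potri.T131500 and CTRL 3 for Potri.T131400.

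Counts of Potri.T030600 were 48, 35 and 50 in CTRL and 11, 3 and 17 in RNAi. The mean level was 3.21 ± 0.88 CPM in CTRL and 0.656 ± 0.412 CPM in RNAi (SD, n = 3 each). Again the groups were apart. The fitted log2 fold change was -2.26 ± 0.49 (SE), at an adjusted p of 0.80 by edgeR's quasi-likelihood test, and the gene passed in DESeq2 (adjusted p = 0.016) and in the likelihood ratio test (adjusted p = 0.0026). These genes were picked by their fitted difference or p, which favours groups that do not overlap.

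Scaffold genes in adjacent rows resembled each other somewhat more in their profile over the 6 plants than chromosome genes in adjacent rows. Over 394 pairs of tested scaffold genes in adjacent rows, the median Pearson correlation of log2 CPM over the 6 libraries was 0.17, against 0.09 over 19588 such pairs on the chromosomes. With the group means removed the medians were 0.15 and 0.10. At 2 rows apart the medians over the 6 libraries were 0.044 on scaffolds and 0.043 on the chromosomes. They were -0.0086 and 0.019 at 5 rows apart, and 0.03 and 0.0065 at 20 rows apart. The pairs were not matched on level. Each correlation rests on 6 libraries and many low counts, pairs share libraries, and adjacent rows may lie on different scaffolds, so these values are a description.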

How the data were processed

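The deposited values are raw counts per gene, per the file headers, in 3 columns: unstranded, forward and reverse. The submitters' processing notes name STAR. For the STAR version, the build and the gene models the entry is: not given in the sources used here. Libraries were poly(A)-selected, paired-end and strand-specific, per the labels' protocols. The reverse column was used as the sense strand of this kit. The 4 summary lines that name no gene, between 11.7% and 13.1% of a library's reads, stayed out of library sizes and tests.

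RNAi was compared with CTRL over all genes by edgeR's quasi-likelihood test (edgeR 4.0.16, R 4.3.3, robust, two-sided) with TMM factors, the filterByExpr filter and a threshold of 0.05 on the Benjamini-Hochberg adjusted p. Each SE was taken as log2 fold change over the square root of F. The procedure was tested on simulated data. For level matching, the tested scaffold genes were cut into 10 bins of equal number by mean CPM over all 6 libraries, and chromosome genes were weighted to their distribution over the bins. Alternatives used DESeq2 1.42.0, limma-voom (limma 3.58.1), the likelihood ratio test, other scalings, filters and columns, a block of replicate numbers, other bins and the omission of each library. Over the scaffold genes no pair of libraries was as close as sampling noise alone allows (chi-square per degree of freedom from 6.65 to 21.7).

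The scaffold genes, the tests and the lists were chosen with earlier results of these data known. The rule for named genes takes the 5 highest mean levels, the 2 largest fitted increases and the 2 largest decreases at an unadjusted p under 0.05, the lowest p, the 3 largest opposite-strand shares and up to 2 genes at 0 in 1 group, of which there were none. The opposite-strand shares were ranked among scaffold genes with at least 10 sense counts. Lists by gene name or function were not analysed here, for lack of names, and no sequence is shown.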

Additional observations from a re-analysis of the deposited data

How the results depend on the processing

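The count of called scaffold genes was 0 in edgeR's quasi-likelihood test under every other scaling, filter and column, with the replicate block, with any library left out and in limma-voom, and 2 with DESeq2 and 2 with the likelihood ratio test (Potri.T085000 and Potri.T030600), where all genes gave 37 (0.124%) and 61 (0.244%). With 1 library left out, scaffold genes at an unadjusted p under 0.05 numbered between 31, without CTRL 3, and 68, without RNAi 1. In all 15 alternatives the higher genes made up a larger part of these scaffold genes (59.6% to 73.5%) than of all genes, and in all 15 their share of the genes tested exceeded the level-matched share. In either direction together, the scaffold share was not above that of all genes with DESeq2 (4.75% against 4.82%, level-matched 4.24%). DESeq2 was run without the filter, and edgeR's quasi-likelihood test without the filter gave 6.43% against 5.40%. The share of lower genes was below its level-matched value in 14 of 16 settings, the reported one included, and above it without CTRL 2 and without RNAi 2. The median log2 fold change was -0.0070 with library size as the only scaling, where that of the chromosome genes was -0.04, and between 0.022 and 0.069 with 1 library left out. Silent scaffold genes made up 24.9% when all under 10 counts are taken, 9.81% in the unstranded column and between 12.6% and 13.5% without 1 library, an alternative chosen after seeing the data. With 5 or 20 bins or all genes of at least 10 counts, the level-matched share at an unadjusted p under 0.05 stayed between 6.01% and 6.04%, against 6.00%. The difference in the share of counts, RNAi minus CTRL, was -0.064 percentage points and lay between -0.098 and -0.0081. The 5 named genes with fitted differences kept their direction in all alternatives. The deviations of same-numbered CTRL and RNAi libraries had correlations of 0.23, -0.02 and -0.03, where other pairings ran from -0.40 to 0.41. With 3 plants per group, these values cannot show whether the replicate numbers pair the plants. As a block, the replicate numbers gave 0 called scaffold genes and a median log2 fold change of 0.04. At an unadjusted p under 0.05 they gave 39 higher and 17 lower, beside 919 and 596 over all genes. Depth limits the 218 members that were not tested, of which none exceeded 0.947 CPM.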

Other observations

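The following scaffold genes were picked after their values were seen, and none passed the test. Of the 50 at an unadjusted p under 0.05, 6 pairs stood in adjacent rows, 4 of them with the same direction. These 6 are 1.52% of 394 adjacent pairs tested, against 113 of 19588 (0.577%) on the chromosomes, where fewer genes had such a p and levels were not matched. Pairs with the same direction were 1.02%, against 0.373% on the chromosomes. The neighbours Potri.T094100 and Potri.T094200 were both lower in RNAi, with overlapping groups (log2 fold changes of -0.92 and -1.11). Potri.T164200 and Potri.T164300 went in opposite directions (1.40 and -0.84), and the former passed the filter only through RNAi. Potri.T002100, Potri.T002300 and Potri.T002400 are 3 successive rows, each with all RNAi libraries above all CTRL libraries by CPM. Their log2 fold changes were 0.49 ± 0.12, 0.35 ± 0.15 and 0.34 ± 0.11 (SE, adjusted p = 0.80 for each in edgeR's quasi-likelihood test). Levels of Potri.T002400 were 51.0, 46.2 and 52.5 CPM in CTRL and 61.4, 63.4 and 64.4 CPM in RNAi.

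Potri.T034400 and Potri.T044200, which stand far apart in the file, had nearly the same counts in every library. Potri.T034400 had 357, 457 and 436 counts in CTRL and 505, 649 and 661 in RNAi. Potri.T044200 had 360, 449 and 443 counts in CTRL and 487, 644 and 691 in RNAi. Their log2 fold changes were 0.38 each. Whether they share sequence was not tested.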
